A study of Rattus norvegicus with 10 samples.

Results

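The transcripts followed here are those of a list of 37 macrophage and monocyte genes, read in rat left ventricle on Affymetrix whole-genome expression arrays. Each gene was represented by its brightest probe set that names that gene alone. Such a probe set was found for 34 of the 37 genes, and all 34 passed the filter on mean signal, among 10688 genes tested in all. Msr1 and Vsig4, phagocyte surface receptors, and Spi1, which encodes the myeloid transcription factor PU.1, were not analysed here because no probe set names them alone. The rule finds the genes by name, while the mean signal over the arrays of both groups chose the probe set. The list was drawn up with earlier results of these data known, so its counts are a description.

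The samples came from male Sprague-Dawley rats of 250 to 300 g, taken 3 days after gene transfer. The GATA-4 group of 5 arrays had received the gene for GATA-4, a DNA-binding protein that heart muscle cells use to switch on genes. The LacZ group of 5 arrays had received the bacterial gene for beta-galactosidase, which serves as a transfer control. Both groups therefore carry a gene transfer, and no ventricle without one was analysed here. The sources used here give neither the promoter that drives the transferred gene nor the delivery vehicle, injection site or animal age. The labels do not say whether each array is a separate animal, so the p-values measure the spread between these samples.

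Macrophages and monocytes are phagocytes of the innate immune system. The heart holds resident macrophages and takes up monocytes from blood after injury. Their identity rests on PU.1 and on the receptor for colony-stimulating factor 1. Many of their surface receptors have no signalling tail of their own and pair with the adaptors Tyrobp and Fcer1g, whose tyrosine motifs (ITAMs) are phosphorylated by Src family kinases and then bind Syk. Several genes of the list, such as Ptprc, Itgam, Itgb2, Cybb and Fcer1g, are also used by neutrophils and other leukocytes. In a piece of ventricle, more cells of a type and more RNA per cell cannot be told apart.

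Signals were set to a common distribution between arrays (quantile normalization), and levels are given as log2 signal, so that a difference of 1 stands for a doubling. Gata4 itself, the check of the labels, rose 1.73-fold, with 11.44 ± 0.14 after GATA-4 transfer and 10.65 ± 0.13 after LacZ transfer (SD, n = 5 each; limma adjusted p = 0.00131). The heart muscle markers Myh6 and Myl2, the latter chosen after its values were seen, stood at 13.49 and 13.46 with GATA-4, and at 13.51 and 13.44 with LacZ. They do not stand for all 11 heart muscle genes tested, of which 3 had positive differences. Ttn fell by 0.27 (limma adjusted p = 0.00957), where 2.66% of all genes fell. GATA-4 array 1 stood apart before normalization, with a trimmed mean signal of 142, whereas the other 4 of its group had 249 to 329 and the LacZ arrays 249 to 314. It is called the dim array below, and its values are given beside the results it touches.

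Of the 34 genes measured, 10 rose with GATA-4 and none fell at an adjusted p under 0.05 in limma, where 3.71% of all genes tested rose and 2.66% fell. The 10 were Tyrobp, Cd14, Fcgr3a, Fgr, Lyn, Cd68, Csf1r, Fcer1g, Laptm5 and Lyz2, in order of their differences, which ran from 1.24 to 0.26. In all, 32 of the 34 differences were positive, and 25 were higher and 0 lower at an unadjusted p under 0.05, where 12% of all genes were higher and 12.2% lower. The median difference was 0.51 over the 34 genes and -0.017 over all genes tested. On all 5 GATA-4 arrays 10 members, 8 of them among those that rose, read above all 5 LacZ arrays, where 4.56% of all genes did so. None lay below all LacZ arrays, and 5.1% of all genes did so. Without the dim array 28 members rose, and 9.94% of all genes did, and 24 members lay above all LacZ arrays, where 9.71% of all genes did so. Without LacZ array 3 the count that rose was 4, with 0.945% of all genes. Leaving out GATA-4 array 3 or LacZ array 5 left 5 members each, with 1.53% and 1.59% of all genes. With centring on the array median in place of quantile normalization 6 members and 2.06% of all genes rose, and over all genes 220 rose and 267 fell, where quantile normalization gave 397 and 284.

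**Figure D1:**
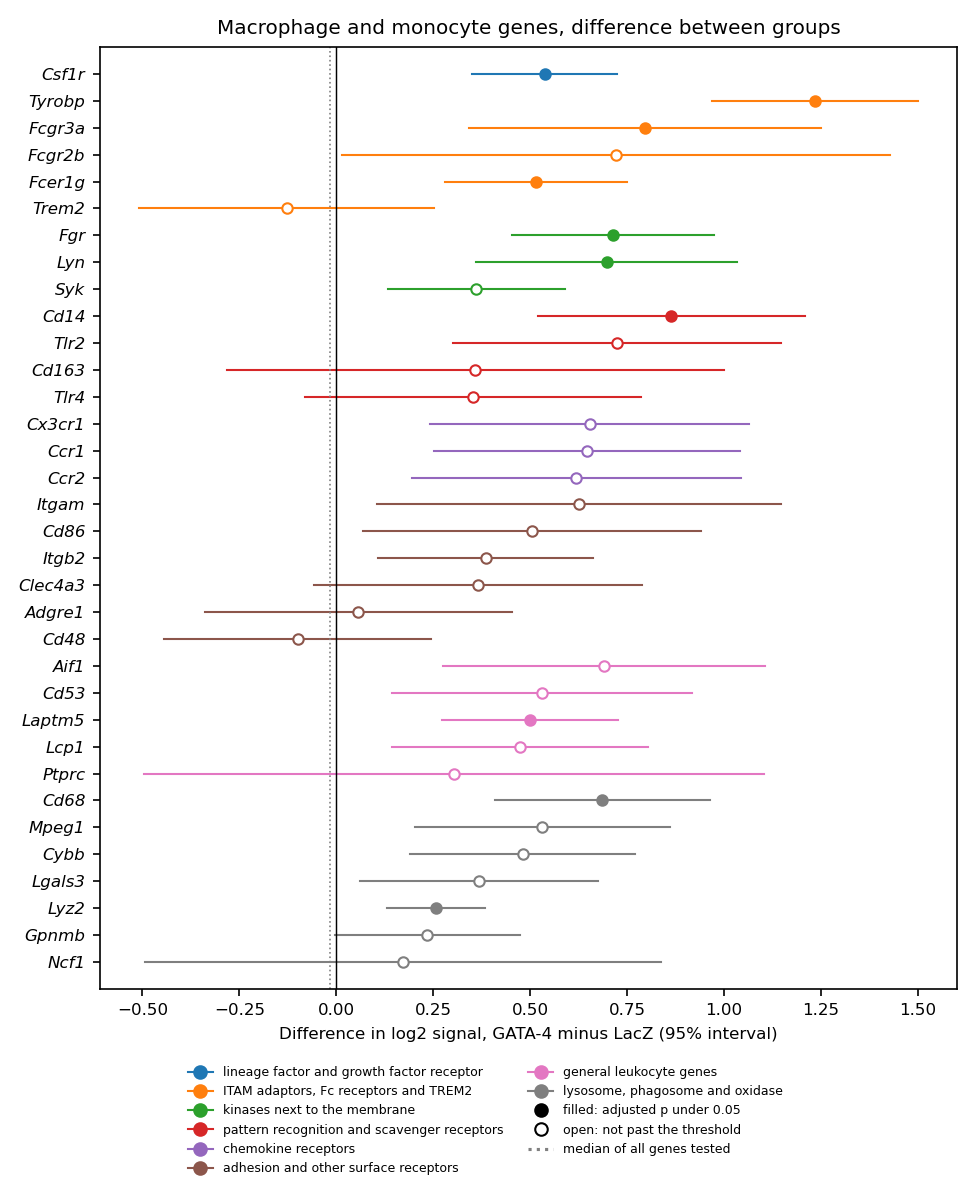
Difference in log2 signal between the GATA-4 and LacZ arrays for the 34 genes measured, grouped by role, with 95% intervals from limma (n = 5 arrays each). Filled points mark the 10 genes with an adjusted p under 0.05, and the dotted line is the median of all genes tested, -0.017. All points but Trem2 and Cd48 lie right of 0.

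Promoters of the members are shown because PU.1, whose own gene was not analysed here, is the factor best known for binding myeloid promoters. RefSeq promoter windows of the GRCr8 assembly, 250 bases before to 50 after each gene's start, were at hand for 27 of the 37 genes. The letters GAGGAA, the core of PU.1 sites, were searched on both strands and occurred in 18 of these 27 windows (66.7%), against 27.5% of all 27457 windows. The longer form GAGGAAGT, which contains the core, occurred in Cd53 and Fcgr3a (7.41%, against 2.44% of all). Letters of GATA sites (AGATAA or else AGATAG or else TGATAA or else TGATAG) occurred in 11 of the 27 (40.7%), against 29.9% of all windows. The core stood in 6 of 7 windows of genes that rose and in 12 of 19 of genes that were measured and not called, and the letters of GATA sites stood in 0 and 11 of these windows. Windows of Fcgr3a, Cd68 and Lyz2, which rose, and of Adgre1, which was not called, are given 5′ to 3′ with GAGGAA or its reverse complement in capitals.
Fcgr3a promoter, chr13:85782386-85782685, plus strand: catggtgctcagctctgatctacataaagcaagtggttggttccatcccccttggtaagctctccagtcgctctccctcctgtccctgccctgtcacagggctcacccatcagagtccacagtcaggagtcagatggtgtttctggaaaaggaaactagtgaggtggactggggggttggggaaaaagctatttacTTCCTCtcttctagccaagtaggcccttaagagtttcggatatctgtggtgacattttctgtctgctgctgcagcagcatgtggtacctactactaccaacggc
Cd68 promoter, chr10:54882392-54882691, minus strand: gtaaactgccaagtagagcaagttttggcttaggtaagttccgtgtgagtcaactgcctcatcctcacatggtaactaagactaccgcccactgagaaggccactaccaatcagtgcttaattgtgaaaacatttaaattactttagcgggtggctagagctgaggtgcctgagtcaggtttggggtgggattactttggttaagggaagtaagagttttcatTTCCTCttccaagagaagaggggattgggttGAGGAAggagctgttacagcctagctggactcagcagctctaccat
Lyz2 promoter, chr7:54797962-54798261, minus strand: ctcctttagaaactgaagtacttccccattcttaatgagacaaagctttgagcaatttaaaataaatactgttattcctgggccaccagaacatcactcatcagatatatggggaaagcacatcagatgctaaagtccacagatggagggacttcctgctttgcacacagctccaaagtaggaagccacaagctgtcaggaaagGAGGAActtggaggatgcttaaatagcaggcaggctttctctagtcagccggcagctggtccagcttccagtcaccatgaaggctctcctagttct
Adgre1 promoter, chr9:2329190-2329489, plus strand: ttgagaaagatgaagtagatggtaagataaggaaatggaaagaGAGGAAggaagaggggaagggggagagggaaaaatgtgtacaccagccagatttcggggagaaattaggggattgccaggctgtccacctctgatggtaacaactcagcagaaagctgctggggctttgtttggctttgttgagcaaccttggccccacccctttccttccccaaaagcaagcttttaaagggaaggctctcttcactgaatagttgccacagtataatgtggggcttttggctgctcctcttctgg
Counted from the start site, the leftmost base of the core stood at -54 in Fcgr3a, at -46 in Lyz2, at -27 and 5 in Cd68 and at -207 in Adgre1. A match is a run of letters and not a measured binding site.

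Tyrobp, also called DAP12, showed the widest difference of the list. It had a log2 signal of 10.81, 10.41, 10.80, 10.32 and 10.58 on GATA-4 arrays 1 to 5, against 9.51, 9.45, 9.17, 9.49 and 9.12 on LacZ arrays 1 to 5. The groups lay more than 0.8 apart at their nearest arrays, and the dim array was the highest of all. Tyrobp rose 2.35-fold (difference 1.24, SE 0.12, adjusted p = 0.00074). Fcer1g, the adaptor shared by the activating Fc receptors, had 12.21, 12.66, 12.77, 12.54 and 12.26 on GATA-4 arrays 1 to 5, against 12.04, 12.14, 11.75, 11.98 and 11.96 on LacZ arrays 1 to 5. The groups did not overlap, although the dim array came within 0.07 of the highest LacZ array. Fcer1g rose 1.43-fold (difference 0.51, SE 0.11, adjusted p = 0.0217).

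Of the receptors on this level, Fcgr3a, an activating receptor for immunoglobulin G, had 9.83, 10.58, 11.08, 10.45 and 10.09 on GATA-4 arrays 1 to 5, against 9.74, 10.06, 9.27, 9.50 and 9.47 on LacZ arrays 1 to 5. The dim array was the lowest of its group and lay below LacZ array 2, and the other GATA-4 arrays lay above all LacZ arrays. Fcgr3a rose 1.74-fold (difference 0.80, SE 0.21, adjusted p = 0.0463). Fcgr2b, the inhibitory counterpart, differed by 0.72 (95% interval 0.02 to 1.43, adjusted p = 0.217), with 7.85 on the dim array, below every LacZ array, and 8.93 to 9.91 on arrays 2 to 5 of that group. Probes for related Fc receptor genes can share sequence, and their cross-hybridization was not tested. Trem2, a lipid-sensing receptor that signals through Tyrobp, had 6.63, 6.97, 6.73, 6.18 and 6.28 on GATA-4 arrays 1 to 5, against 6.38, 6.84, 6.47, 6.88 and 6.87 on LacZ arrays 1 to 5. Its groups overlapped throughout (difference -0.13, 95% interval -0.51 to 0.25, adjusted p = 0.717), and a second, dimmer Trem2 probe set differed by -0.14.

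Csf1r, the receptor for colony-stimulating factor 1 on which macrophage survival depends, had 11.05, 11.01, 10.96, 11.16 and 10.85 on GATA-4 arrays 1 to 5, against 10.49, 10.63, 10.27, 10.40 and 10.57 on LacZ arrays 1 to 5. All GATA-4 arrays, the dim one included, lay above all LacZ arrays. Csf1r rose 1.45-fold (difference 0.54, SE 0.09, adjusted p = 0.00819). Its ligands Csf1 and Il34 had differences of -0.071 and -0.056 (adjusted p = 0.851 and 0.847).

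The kinases that act on ITAMs were read next. Fgr, a Src family kinase of myeloid cells, had 8.66, 8.64, 9.07, 8.66 and 8.56 on GATA-4 arrays 1 to 5, against 8.13, 8.15, 7.85, 8.01 and 7.87 on LacZ arrays 1 to 5. The groups were separate, with GATA-4 array 3 above the rest. Fgr rose 1.64-fold (difference 0.71, SE 0.12, adjusted p = 0.00957). Lyn, another kinase of that family, had 8.35, 8.31, 8.32, 8.30 and 8.30 on GATA-4 arrays 1 to 5, against 7.03, 7.54, 7.89, 7.98 and 7.64 on LacZ arrays 1 to 5. The GATA-4 arrays lay within 0.05 of each other and above LacZ arrays that were spread widely, and Lyn rose 1.62-fold (difference 0.70, SE 0.16, adjusted p = 0.026). Syk, which binds the phosphorylated motifs, had 8.14, 8.00, 7.99, 8.05 and 7.95 on GATA-4 arrays 1 to 5, against 7.70, 7.76, 7.55, 7.86 and 7.47 on LacZ arrays 1 to 5. Its groups did not overlap, but the difference of 0.36 (95% interval 0.13 to 0.59) did not pass, with an adjusted p of 0.0664.

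**Figure D2:**
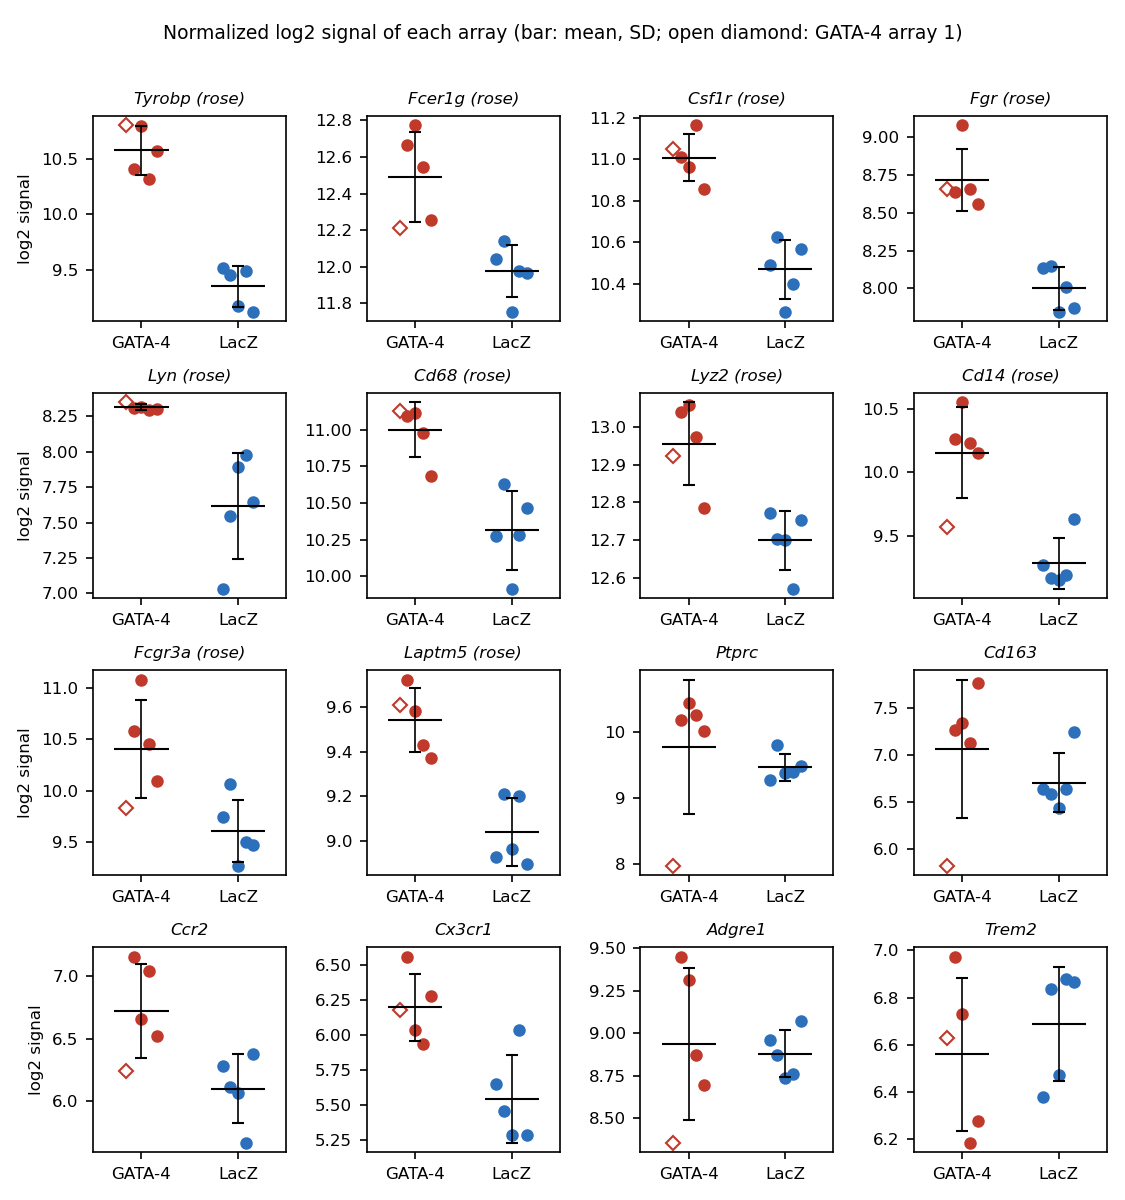
Normalized log2 signal of 16 members on each of the 10 arrays, with the GATA-4 arrays left and the LacZ arrays right; bars give the mean and SD (n = 5), and the open diamond is the dim array. The vertical scale differs between panels and does not start at 0. Tyrobp, Csf1r, Fgr and Lyn are separate between groups with the dim array included, whereas for Ptprc, Cd163 and Adgre1 the dim array lies below every LacZ array.

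Of the pattern recognition and scavenger receptors, 1 of 4 rose. Cd14, the coreceptor for bacterial lipopolysaccharide, had 9.57, 10.26, 10.55, 10.23 and 10.15 on GATA-4 arrays 1 to 5, against 9.28, 9.17, 9.15, 9.20 and 9.64 on LacZ arrays 1 to 5. Only the dim array overlapped the LacZ range, by lying just under LacZ array 5. Cd14 rose 1.82-fold (difference 0.86, SE 0.16, adjusted p = 0.0136). Its signalling partner Tlr4 had 7.14, 8.17, 8.21, 7.91 and 7.54 on GATA-4 arrays 1 to 5, against 7.49, 7.68, 7.03, 7.48 and 7.52 on LacZ arrays 1 to 5. The groups overlapped, with a difference of 0.35 (95% interval -0.08 to 0.79, adjusted p = 0.326). Tlr2, a receptor for bacterial lipoproteins, differed by 0.72 (0.30 to 1.15) and narrowly missed the threshold with an adjusted p of 0.0504. Cd163, the haemoglobin scavenger receptor used as a mark of resident macrophages, had 5.82, 7.27, 7.33, 7.13 and 7.76 on GATA-4 arrays 1 to 5, against 6.63, 6.58, 6.43, 6.63 and 7.24 on LacZ arrays 1 to 5. Each group held 1 array far from the others, the dim array low and LacZ array 5 high, and the difference of 0.36 had an interval of -0.28 to 1.00.

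None of the 3 chemokine receptors passed, while all 3 were higher at an unadjusted p under 0.05, where 12% of all genes were. Ccr2, the receptor by which inflammatory monocytes leave the marrow, had 6.24, 7.15, 6.65, 7.04 and 6.52 on GATA-4 arrays 1 to 5, against 6.28, 6.12, 6.06, 5.67 and 6.37 on LacZ arrays 1 to 5. The dim array lay within the LacZ range and the others above it, with a difference of 0.62 (95% interval 0.20 to 1.04, adjusted p = 0.0852). Cx3cr1, the fractalkine receptor of monocytes and many resident macrophages, had 6.18, 6.56, 6.04, 5.94 and 6.28 on GATA-4 arrays 1 to 5, against 5.65, 5.46, 5.29, 6.04 and 5.29 on LacZ arrays 1 to 5. LacZ array 4 reached into the GATA-4 range, and the difference was 0.65 (0.24 to 1.06, adjusted p = 0.0658). Ccr1 differed by 0.65 as well (0.25 to 1.04, adjusted p = 0.0592). Without the dim array all 3 rose, where 9.94% of all genes did, with adjusted p of 0.0162 for Ccr2, 0.0433 for Cx3cr1 and 0.0121 for Ccr1. Of 8 ligands of member receptors 2 rose, where 3.71% of all genes did, with a median difference of 0.35 over the 8. Ccl2 rose 2.35-fold (adjusted p = 0.036) and Ccl3 1.91-fold (adjusted p = 0.0256), and Cx3cl1 differed by 0.092 (adjusted p = 0.859).

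The 6 adhesion and other surface receptors held no call. At an unadjusted p under 0.05, 3 of them were higher and 0 lower, where 12% of all genes were higher and 12.2% lower. Itgam, the alpha chain of complement receptor 3, had 6.84, 7.03, 6.22, 6.39 and 6.49 on GATA-4 arrays 1 to 5, against 5.76, 6.86, 5.84, 5.72 and 5.65 on LacZ arrays 1 to 5. LacZ array 2 lay far above the other LacZ arrays, and the difference of 0.63 (95% interval 0.11 to 1.15) had an adjusted p of 0.15. Its beta chain Itgb2 was separate between groups, with 9.17 to 9.41 on the GATA-4 arrays and 8.47 to 9.16 on the LacZ arrays, and a difference of 0.39 (adjusted p = 0.101). Adgre1, the gene of the F4/80 antigen of rodent macrophages, had 8.35, 9.45, 9.31, 8.87 and 8.69 on GATA-4 arrays 1 to 5, against 8.96, 8.87, 8.73, 8.76 and 9.07 on LacZ arrays 1 to 5. The LacZ arrays lay inside the wider GATA-4 range. The difference was 0.06 (95% interval -0.34 to 0.45, adjusted p = 0.884), and it was 0.20 without the dim array and -0.07 without GATA-4 array 2. Clec4a3, a C-type lectin receptor, differed by 0.36 (-0.06 to 0.79), Cd86, a costimulatory ligand for T cells, by 0.51 (0.07 to 0.94) and Cd48, an adhesion molecule of leukocytes, by -0.10 (-0.44 to 0.24).

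Genes used by leukocytes in general gave 1 rise among 5. Laptm5, a lysosomal membrane protein of blood cells, had 9.61, 9.72, 9.58, 9.43 and 9.37 on GATA-4 arrays 1 to 5, against 8.93, 9.21, 8.97, 9.20 and 8.90 on LacZ arrays 1 to 5. The groups were separate, and Laptm5 rose 1.42-fold (difference 0.50, SE 0.11, adjusted p = 0.0216). Ptprc encodes the leukocyte phosphatase CD45 and was read by both of its probe sets. The brighter had 7.97, 10.18, 10.44, 10.25 and 10.01 on GATA-4 arrays 1 to 5, against 9.26, 9.80, 9.38, 9.39 and 9.49 on LacZ arrays 1 to 5. The dim array lay far below every other array, and the difference of 0.30 (95% interval -0.49 to 1.10) had an adjusted p of 0.676. The second probe set had 7.60, 7.92, 7.82, 8.16 and 8.16 on GATA-4 arrays 1 to 5, against 6.82, 7.51, 7.09, 7.14 and 7.38 on LacZ arrays 1 to 5. It was separate between groups and rose 1.67-fold (difference 0.74, adjusted p = 0.0209), so that both read higher with GATA-4 and the dim array decides the call of the brighter. Without that array the brighter differed by 0.75 (adjusted p = 0.00184). Aif1, a calcium-binding protein also known as IBA1, differed by 0.69 (adjusted p = 0.056), the tetraspanin Cd53 by 0.53 (adjusted p = 0.105) and the actin-bundling Lcp1 by 0.47 (adjusted p = 0.0906).

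Of the 7 genes of the lysosome, phagosome and oxidase, 2 rose. Cd68, a lysosomal glycoprotein of phagocytes, had 11.12, 11.09, 11.12, 10.98 and 10.68 on GATA-4 arrays 1 to 5, against 10.27, 10.63, 9.91, 10.28 and 10.47 on LacZ arrays 1 to 5. The groups were separate by a narrow gap between GATA-4 array 5 and LacZ array 2, and Cd68 rose 1.61-fold (difference 0.69, SE 0.13, adjusted p = 0.014). Lyz2, the bacteriolytic enzyme lysozyme, had 12.92, 13.04, 13.06, 12.98 and 12.79 on GATA-4 arrays 1 to 5, against 12.77, 12.70, 12.70, 12.57 and 12.75 on LacZ arrays 1 to 5. The spread within groups was small, and in these separate groups Lyz2 rose 1.20-fold (difference 0.26, SE 0.06, adjusted p = 0.0278). Cybb, the catalytic subunit of the phagocyte NADPH oxidase, differed by 0.48 in its brighter probe set (adjusted p = 0.0564) and rose by 0.73 in its other one (adjusted p = 0.0265). The oxidase organizer Ncf1 differed by 0.17 (95% interval -0.49 to 0.84), with 6.80 on the dim array, the highest of all 10, and 5.16 to 5.70 on arrays 2 to 5 of that group. Mpeg1, a pore-forming protein of phagosomes, differed by 0.53 (adjusted p = 0.0619), the galectin Lgals3 by 0.37 (adjusted p = 0.152) and the glycoprotein Gpnmb by 0.23 (adjusted p = 0.233).

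**Figure D3:**
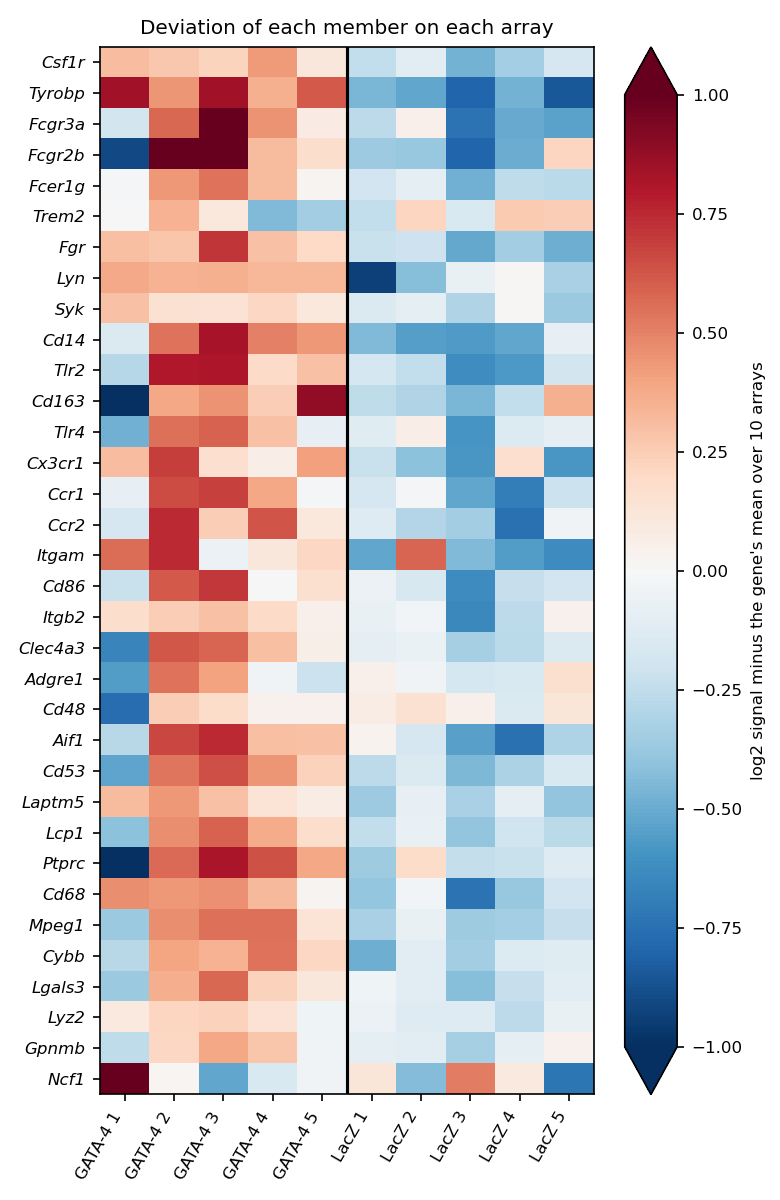
Deviation of each member's log2 signal from its own mean over the 10 arrays, with the GATA-4 arrays left of the line and the LacZ arrays right; colours saturate at 1. GATA-4 arrays 2 to 5 are mostly above the mean and the LacZ arrays mostly below, while the dim array in the first column holds both high members, such as Tyrobp, and low ones, such as Ptprc.

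Over the 34 genes, the mean deviation from each gene's mean was 0.47, 0.48, 0.26 and 0.15 on GATA-4 arrays 2 to 5 and -0.13 on the dim array, against -0.41 to -0.12 on the LacZ arrays. The dim array was thus just below the highest LacZ array on this measure, and the other GATA-4 arrays were above it. Members did not move together on the dim array. There 12 read above all LacZ arrays, namely Csf1r, Tyrobp, Fcer1g, Syk, Lyn, Fgr, Cx3cr1, Itgb2, Laptm5, Cd68, Lyz2 and Ncf1. In contrast, 9 were the lowest of all 10 arrays there, namely Fcgr2b, Cd163, Adgre1, Clec4a3, Cd48, Ptprc, Cd53, Lcp1 and Mpeg1. GATA-4 array 3 held the highest value of 18 members and LacZ array 3 the lowest value of 13. These counts on single arrays were not taken over all genes, so they cannot be read as particular to the members. RNA integrity was read from control probe sets at the 3' and 5' ends of Gapdh and actin, whose mean log2 ratio was 0.99 on the dim array, 0.92 to 1.34 over GATA-4 arrays 2 to 5 and 0.88 to 1.43 over the LacZ arrays. What sets the dim array's pattern was not tested.

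Members were set against each other in 8 pairs with related roles. The pairs were chosen after the values were seen, Tyrobp being the member with the widest difference and Trem2 that with the lowest. The values are therefore a description, and whether an interval holds 0 is not read as a test. The log2 ratio of the first gene to the second was taken on each array, and its difference between groups is given with a 95% interval from inverting an exact permutation test. Tyrobp over Fcer1g was higher by 0.72 with GATA-4 (0.31 to 1.16), and Tyrobp over its receptor partner Trem2 by 1.36 (0.88 to 1.80). In both pairs all 5 GATA-4 arrays lay above all LacZ arrays.

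Cd14 over Tlr4 was higher by 0.51 with GATA-4 (95% interval 0.20 to 0.87), with 4 GATA-4 arrays above all LacZ arrays. Csf1r over Adgre1 was higher by 0.48 (-0.03 to 0.97), with 3 such arrays. The ratio of activating Fcgr3a to inhibitory Fcgr2b differed by 0.07 (-0.52 to 0.73), and that of Ccr2 to Cx3cr1 by -0.03 (-0.70 to 0.71). Cybb over Ncf1 differed by 0.31 (-0.81 to 1.32) and Itgam over Itgb2 by 0.24 (-0.46 to 0.88). These intervals are wide, and equal responses were not shown.

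A second probe set passed the filter for 8 of the genes. Those of Aif1 and Cd86 did so through the GATA-4 arrays, with LacZ means of 4.95 and 5.15 below the filter value of 5.17, so their direction carries no weight. In the other 6 genes both probe sets differed in the same direction. Over the 42 probe sets 12 rose, where 3.04% of all probe sets did, Ptprc and Cybb being called by the dimmer one. The dimmer probe sets of Lyn and Laptm5 differed by 0.56 (adjusted p = 0.211) and 0.35 (adjusted p = 0.143), so the calls of these genes rest on the brighter ones. In Cd86, Aif1 and Mpeg1 neither probe set passed, with differences of 0.51 and 0.82, 0.69 and 0.86, and 0.53 and 0.74.

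The calls differed in how far they rested on single arrays. Tyrobp, Csf1r, Fgr and Cd68 were called in all 10 fits that left out an array. Cd14 missed the threshold in 1 of them, without LacZ array 3 (adjusted p = 0.0514), Fcer1g and Laptm5 in 4, Lyn in 6, and Lyz2 and Fcgr3a in 8. Trem2, Itgb2, Adgre1, Cd48 and Ncf1 were called in none. By role, the genes that rose without the dim array were Csf1r, 4 of 5 ITAM adaptors and their receptors, all 3 kinases, all 4 pattern recognition and scavenger receptors, 2 of 6 adhesion and surface receptors, all 5 general leukocyte genes and 6 of 7 genes of the lysosome, phagosome and oxidase, besides the chemokine receptors. Over all genes 9.94% rose in that fit, against 3.71% with all arrays. Without GATA-4 arrays 4 and 5, whose sample numbers lie apart from the others', 6 members rose, and 1.06% of all genes did.

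**Figure D4:**
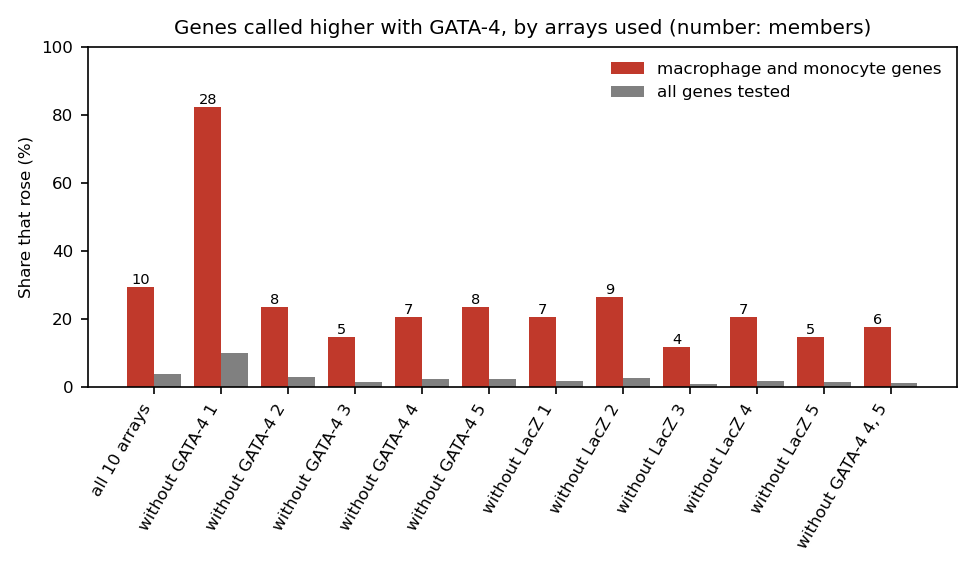
Share of the 34 genes (red) and of all 10688 genes tested (grey) called higher with GATA-4, in percent, with all 10 arrays and with arrays left out; numbers above the red bars count members. The red bar stands at 10 members with all arrays, 28 without the dim array and 4 without LacZ array 3.

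Other genes of the same pathways were counted from 5 lists that hold no member. Of 50 such genes measured 15 rose and none fell, against 3.71% of all genes that rose. At an unadjusted p under 0.05, 24 were higher and 0 lower, against 12% and 12.2% of all genes. Their median difference was 0.40. These counts rested on single arrays too. Without the dim array 26 rose, where 9.94% of all genes did. Without LacZ array 3 the count in limma was 0, where 0.945% of all genes rose. In that fit 22 were higher at an unadjusted p under 0.05, where 9.32% of all genes were. With each of the other 8 arrays left out 3 to 9 rose, where 1.53% to 2.88% of all genes did.

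Below the ITAM adaptors 4 of 14 signalling genes rose, with a median difference of 0.46. They were Pik3cd, a phosphoinositide kinase subunit (2.09-fold, adjusted p = 0.0188), the phosphatase Inpp5d or SHIP1 (1.59-fold, adjusted p = 0.0139), the kinase Btk (1.55-fold, adjusted p = 0.0331) and Sirpa, the inhibitory receptor for CD47 (1.33-fold, adjusted p = 0.0308). The adaptor Hcst, a relative of Tyrobp that carries a different motif, differed by 0.13 (adjusted p = 0.55). Among 4 further NADPH oxidase genes Ncf4 rose 1.80-fold and the membrane subunit Cyba 1.36-fold (adjusted p = 0.0481 and 0.0364). Rac2, the GTPase of the complex, differed by 0.096.

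Of 13 partners of Toll-like receptors 4 rose, with a median difference of 0.26. These were Irf5, a transcription factor below the receptors (difference 0.58, adjusted p = 0.0202), the receptors Tlr8 (1.66-fold, adjusted p = 0.0244) and Tlr1 (1.69-fold, adjusted p = 0.0393), and the adaptor Myd88 (1.42-fold, adjusted p = 0.0471). Tlr7, chosen after its values were seen, differed by 0.71 and did not pass (adjusted p = 0.135).

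Of 11 further macrophage genes, most of them known from tissue-resident cells, 3 rose, with a median difference of 0.31. Mrc1, the mannose receptor CD206, rose 1.51-fold (adjusted p = 0.0265), the scavenger receptor Stab1 1.40-fold (adjusted p = 0.0264) and the complement subunit C1qb 1.38-fold (adjusted p = 0.0392). Lyve1, a hyaluronan receptor that lymphatic endothelium shares, differed by 0.065. F13a1 and the transporter Slco2b1, both singled out after their values were seen, differed by -0.25 and -0.23, and Slco2b1 read lower on all 5 GATA-4 arrays than on any LacZ array without passing limma (adjusted p = 0.269).

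Markers of other cells were read beside these genes. Of 15 neutrophil markers listed, 10 were named on the array and 5 passed the filter, of which 3 rose, where 3.71% of all genes did. They were the decoy receptor Il1r2 (2.79-fold, adjusted p = 0.0278), the ficolin Fcnb (2.22-fold, adjusted p = 0.0315) and Csf3r, the receptor for granulocyte colony-stimulating factor (1.94-fold, adjusted p = 0.026). S100a8 and S100a9 differed by 1.42 and 1.21 and did not pass (adjusted p = 0.212 and 0.387). The median difference over the 5 was 1.21. All 5 rose without the dim array, where 9.94% of all genes did so. The summed signal of the 10 neutrophil genes ran from 586, on the dim array, to 3043 with GATA-4, against 443 to 1346 with LacZ. Mpo, the defining granule enzyme, was not analysed here, and the granule peptide gene Camp did not pass the filter, at a mean log2 of 1.97 with GATA-4 and 1.67 with LacZ. Of 13 T and NK cell markers none passed in limma, and 4 rose without the dim array. At an unadjusted p under 0.05 there were 4 higher, where 12% of all genes were. Cd3e differed by 0.67 (adjusted p = 0.274), but it and Gzma, 1 of the 4 higher, passed the filter only through the GATA-4 arrays. The summed signal of the 17 T and NK genes named on the array was 1534 to 2741 with GATA-4 and 1515 to 1921 with LacZ. Of 12 genes of dividing cells Cdk1, Mki67, Top2a and Kif20a rose, Mki67 by 1.73-fold, where 3.71% of all genes rose. All 12 differences were positive, with a median of 0.55. At an unadjusted p under 0.05, 10 of the 12 were higher, where 12% of all genes were. Without the dim array 11 of the 12 rose, where 9.94% of all genes did. The summed signal of the 12 was 1823 to 3106 with GATA-4 and 1500 to 1820 with LacZ. The part of neutrophils and of dividing cells in the results above was not tested.

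No dendritic, B cell, mast cell, red cell or platelet, or endothelial marker passed in limma, among 6, 3, 4, 4 and 11 tested. At an unadjusted p under 0.05 the counts were 2 higher for dendritic cells, 0 for B cells, 2 lower for mast cells, 1 higher for red cells and platelets, and 1 higher and 3 lower for endothelium. Over all genes 12% were higher and 12.2% lower. Without the dim array 3 endothelial markers fell and 1 dendritic and 1 red cell or platelet marker rose, while no B cell or mast cell marker was called. In that fit 9.94% of all genes rose and 8.85% fell. The mast cell protease Cpa3 differed by -0.56 (adjusted p = 0.153), and the endothelial Pecam1 by -0.071 (adjusted p = 0.887). Flt3, a dendritic cell receptor, did not pass the filter and was not tested, with a mean log2 of 5.95 on the GATA-4 arrays, all above the LacZ arrays, which averaged 4.30. Of 12 fibroblast genes Dpt, a matrix protein, fell by 0.31 on the log2 scale (adjusted p = 0.0452), and Col1a1 differed by 0.26 (adjusted p = 0.0571), and without the dim array 2 of the 12 rose and 1 fell. Of 11 heart muscle genes Ttn, the giant sarcomere protein titin, fell by 0.27 (adjusted p = 0.00957).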

How the data were processed

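The authors deposited probe set intensities on a linear scale for 10 arrays, and the submitters' processing notes name GCOS, the Affymetrix operating software. The sources used here give neither its version nor its summary algorithm or scaling. The source label set each sample's group, because the titles name GATA-4 on all arrays, and array numbers only name samples. Of 31042 probe sets that are not controls, 20826 listed 1 gene in GEO's platform annotation, 436 several and 9780 none. Symbols were updated by gene ID to RefSeq.

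Log2 values were quantile normalized, floored at 0 and filtered to probe sets with a mean above the 40th percentile, which left 18625. The fit used limma 3.58.1 under R 4.3.3 (eBayes with an intensity trend, no covariates), with two-sided p-values adjusted by the Benjamini-Hochberg method over all of them. All p-values come from this fit or, where an alternative or a left-out array is named, from a limma fit under that setting. Intervals for the 8 ratios of gene pairs invert an exact permutation test over 252 assignments of arrays. The fit was also run on simulated data, with independent noise of the same size on every array. That run held no dim array, so it cannot speak to the effect of that array here.

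The members and lists were chosen with earlier results of these data known. Values array by array are given for members past the threshold and for a set of defining genes. From other lists, up to 4 genes past the threshold and certain defining genes are named, and others are said to be chosen after their values were seen. Myl2, Hcst, Rac2, Tlr7, Lyve1, Cx3cl1, Csf1, Il34, Camp, F13a1, Slco2b1, Gzma, S100a8 and S100a9 are of that kind. Alternatives covered normalization, low values, filters, the variance model, array weights (statmod 1.5.0), the mean over a gene's probe sets, and arrays left out. The number of arrays limits the precision. Protein sequences were not used here.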

Additional observations from a re-analysis of the deposited data

Results flagged for a closer look

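In 6 of the 68 sets of 5 values (34 genes in 2 groups), 1 array lay far from the other 4, with a gap above 0.71 of the whole range. For independent, normally distributed values chance gives such a gap in about 1 of 20 sets, or 3.4 here. The 68 sets share the same 10 arrays and are not independent, so 3.4 is only a guide. On the dim array, Ptprc read 7.973 in its brighter probe set, against 10.01 on the nearest other GATA-4 array, and Cd48 read 10.17, against 10.97. Fgr stood high on GATA-4 array 3, at 9.075, against 8.66 on the next array. On LacZ array 5 Cd14 read 9.635 and Cd163 7.239, against 9.28 and 6.63 on the next LacZ arrays. Itgam read 6.863 on LacZ array 2, against 5.84 on the next.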

How the results depend on the processing

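The median difference of the members stayed positive and within 1 SD of arrays in all 21 alternatives, from 0.40 to 0.63, and no member fell in any of them. Counts moved more. Some settings use fewer arrays, and the cause of the moves was not tested. In the values as deposited, limma called 0 members, 7 genes in all and 0 of the other pathway genes, with 6 members, 9 pathway genes and 2.6% of all genes higher at an unadjusted p under 0.05, and groups did not overlap in 1 member. Median centring gave 6 members and 6 pathway genes. Array weights gave 26 members, 26 pathway genes and 2000 genes in all, where the main setting gave 10, 15 and 681. No filter gave 9 pathway genes and 437 genes, and no intensity trend 6 and 346. Without GATA-4 arrays 4 and 5 there were 6 members, 1 pathway gene and 150 genes. With single arrays left out, members ran from 4 to 28, members without overlap from 10 to 24 (9.71% of all genes where it was 24), pathway genes from 0 to 26 and all genes from 122 to 2008. Differences near 0 changed sign. Trem2 was 0.0904 without GATA-4 arrays 4 and 5, and Cd48 0.0132 with array weights. With single arrays left out, Adgre1 ran from -0.0711 to 0.2037 (-0.0368 without GATA-4 array 3), Cd48 from -0.1735 to 0.0794 and Ncf1 from -0.0859 to 0.3239. The pair ratio of Fcgr3a to Fcgr2b ran from -0.104 to 0.2021 and that of Ccr2 to Cx3cr1 from -0.2663 to 0.099, and the second was 0.0123 with 16 added to every signal. These pair alternatives were chosen after seeing the data. No paired analysis was possible because no replicate number in the labels occurs in both groups.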
